A study of Mus musculus with 12 samples.

Results

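Genes for voltage-gated sodium and calcium channels and for potassium channels were followed through 4 populations of mouse intestinal epithelial cells sorted by their Sox9 level. The genes were taken by name, as every symbol that starts with Kcn and a further letter, with Cacna, Cacnb or Cacng, or with Scn and a digit, so members of other channel families are left out. Of 30265 gene symbols in the table, 134 matched (94 potassium, 26 calcium and 14 sodium channel symbols), and 91 of them had a normalised read count of at least 10 in at least 3 of the 12 libraries. These 91 genes (62 potassium, 19 calcium and 10 sodium) are the channel genes described here. The other 43 stayed below that level, with 1 of them at no read in any library and no value above 17.952. The 91 include 12 that would not have reached the level without the High libraries. Some of these also counted libraries of other gates, as Cacna1s did with 1 High, 1 Sublow and 1 Negative library. At the limit itself, Scn7a, Kcnj14, Cacna1s, Kcnip3, Kcnv2 and Kcnc4 had exactly 3 libraries at 10 or more, while Cacna1i, Kcna1 and Kcnn3 had 2.

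The cells came from C57Bl/6 mice and carried a Sox9-GFP reporter, whose brightness follows the crypt transcription factor Sox9. Flow cytometry split them into Sox9 High, Sox9 Sublow, Sox9 Negative and Sox9 Low, with 3 libraries for each gate (A, B and C), every one from the RNA of 12000 cells. With this reporter, Low is known as the gate of cycling stem cells, Sublow of progenitors, Negative of differentiated cells and High of enteroendocrine and tuft cells. The labels give no age, sex, treatment or gut segment, and do not tie the replicates to different animals. The p-values therefore rest on the spread between libraries alone, which may be technical.

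Excitable cells use these channels in sequence. Voltage-gated sodium channels carry the upstroke of an action potential, voltage-gated calcium channels let in the calcium that releases hormone or transmitter, and potassium channels bring the membrane back to rest and set how easily it fires. Enteroendocrine cells, which secrete gut hormones into the blood, are electrically excitable. Crypt cells and enterocytes are not known to fire, but they use potassium channels in the basolateral membrane to recycle the potassium that their sodium pump brings in, which keeps up the electrical force for chloride secretion and nutrient uptake.

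Values are read counts divided by a size factor for each library, called normalised read counts below and given as mean ± SD over 3 libraries or library by library in the order A, B and C. The libraries held 11.6 to 17.0 M reads assigned to genes, and 3 reads correspond to 2.38 to 4.61 normalised units. Log2 differences are on the log2(value + 1) scale with their standard error, and a gene was called when limma's adjusted p was below 0.05 (Benjamini-Hochberg over all 16577 genes tested). Sox9 itself measured 18857 to 21060 in High, 1259 to 3039 in Sublow, 383 to 725 in Negative and 5945 to 7655 in Low. The gates did not overlap in it. The epithelial gene Vil1 was present in each population, at a mean of 12084 in High, 21891 in Sublow, 46719 in Negative and 6667 in Low. Libraries of Sublow resembled each other least (r = 0.941 to 0.965 between log2 values of 2 libraries, against 0.964 to 0.974 within the other populations). Since these are bulk libraries, fewer cells of a type and less RNA per cell cannot be told apart.

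Channel RNA was concentrated in the High gate. The 91 genes together took 0.342% to 0.358% of the reads in the High libraries, against 0.0575% to 0.0914% in Sublow, 0.0335% to 0.0501% in Negative and 0.148% to 0.162% in Low. The ranges of the 4 populations did not overlap. A different gene led the sum in High, in Negative and in the crypt gates. In High it was Cacna1a, the pore of the P/Q-type calcium channel, with 24.1% of the sum, in Negative it was Kcnk5, an acid-sensitive background potassium channel, with 24.8%, and in Sublow and Low it was Kcnq1, the basolateral potassium channel of secretory crypts, with 12.6% and 15.4%. Channel genes with a mean of at least 100 numbered 45 in High, 17 in Sublow, 15 in Negative and 30 in Low.

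**Figure D1:**
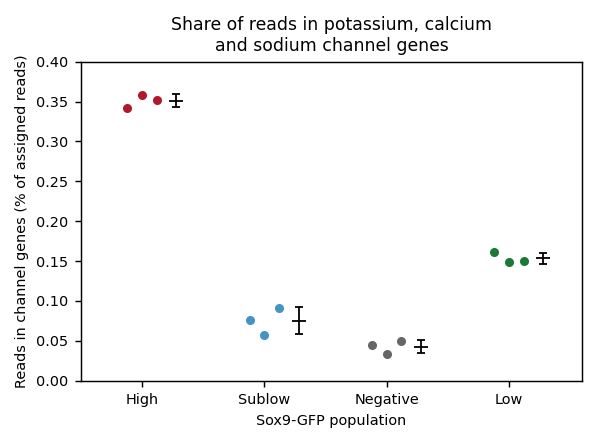
Share of the reads assigned to genes that fell in the 91 channel genes (y axis, percent), by population (x axis). Each point is a library, and the bar beside the points is the mean ± SD of 3 libraries. High lies at 0.342% to 0.358%, above Low at 0.148% to 0.162%, and Sublow and Negative lie below 0.1%.

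In the comparison of High with Low, 47 channel genes (51.65%) rose and 9 fell, where 23.6% of all genes tested rose and 19.3% fell. Their median log2 difference was 1.15, against 0.10 over all genes. High over Negative gave 54 rises and 4 falls (28.8% and 25.8% of all genes), with a median of 2.16 against 0.03. High over Sublow gave 54 rises and 8 falls (26.7% and 25.3% of all genes), with a median of 1.91 against 0.03. The 3 comparisons share the High libraries and are therefore not independent of each other. Their counts and medians include the 12 genes that reached the level only with the High libraries, whose rises in High support nothing. No count without these 12 was made.

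The other populations held fewer channel transcripts than Low. In Sublow, 4 channel genes rose and 30 fell relative to Low (13.3% and 10.7% of all genes), with a median log2 difference of -0.58 against -0.06. Without Sublow replicate B the counts were 1 and 28. In Negative, 6 rose and 43 fell relative to Low (26.8% and 30.3% of all genes), with a median of -1.21 against -0.05. Sublow over Negative gave 20 rises and 3 falls (15.1% and 12.7% of all genes), but 1 and 0 in a fit of those 6 libraries alone, and 22 and 9 without Sublow replicate B.

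By the moderated F test over the 4 populations, 64 of the 91 channel genes differed somewhere, near the 69.5% of all genes. Of the 91, 65 had their highest mean in High (71.4%, against 35.7% of all genes). That count also takes in genes among the 12 that needed the High libraries to reach the level. In High, 45 (49.5%) were above each of the other 3 populations by the test, against 15.6% of all genes. Negative had 1 such gene (Kcnk5, against 9.33% of all genes), Sublow had 1 (Kcnk6, against 0.0603%) and Low had 2 (Kcnq1 and Scn2b, against 1.1%). Of the 45, 40 would have entered the set without the High libraries and 5 (Cacna1g, Kcnab2, Kcnab3, Kcnc4 and Kcns2) entered only through them, so that their place in High supports nothing. By class, the 45 were 30 of 62 potassium, 12 of 19 calcium and 3 of 10 sodium channel genes. The 15.6% of all genes is the background for each such class count in High, here and in the paragraphs below.

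**Figure D2:**
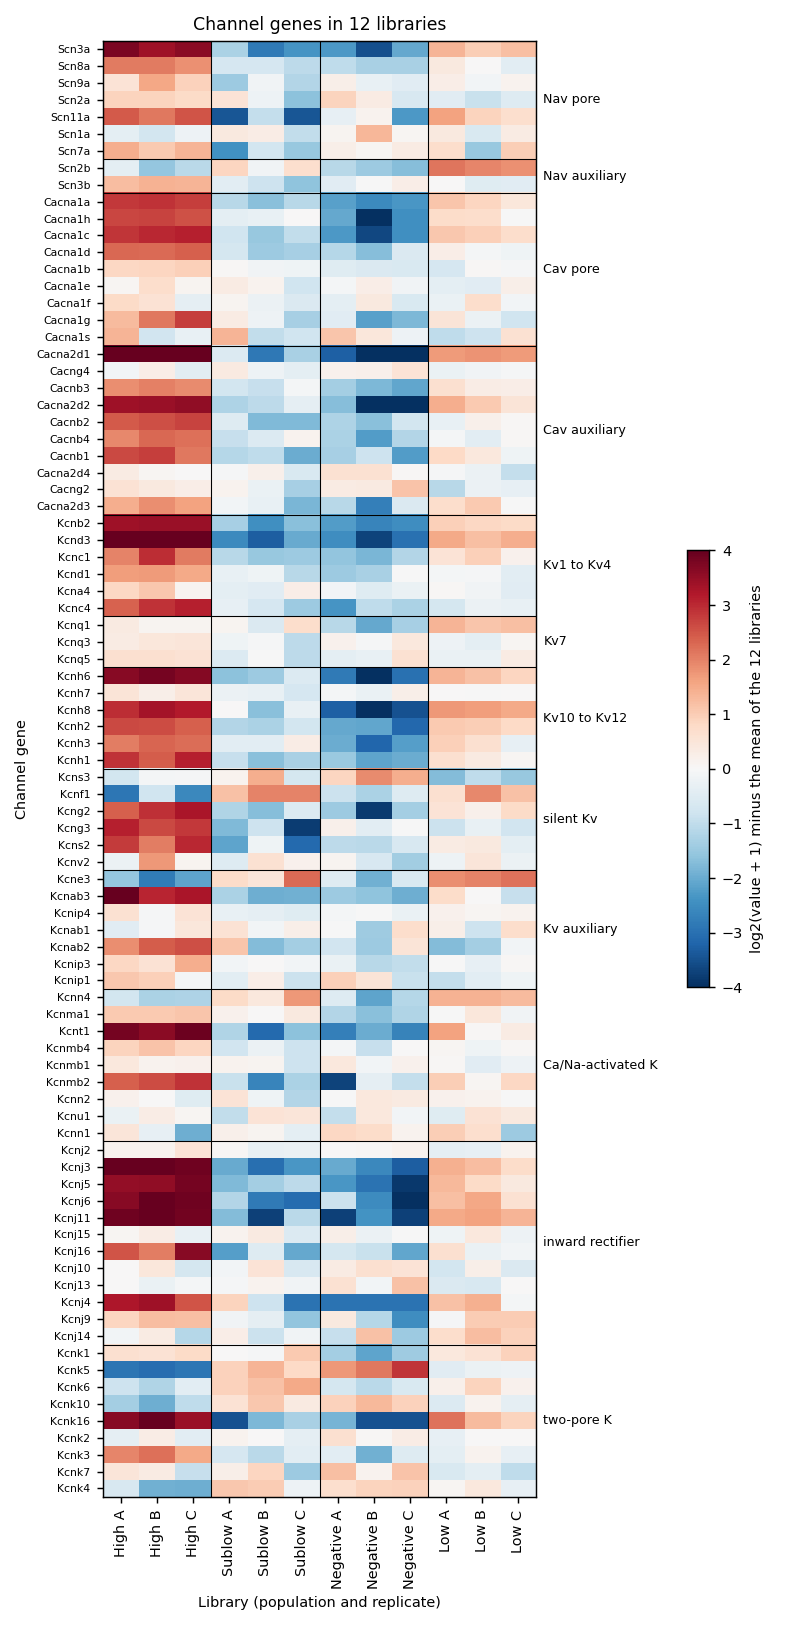
Channel genes (rows, grouped by channel class and ordered by mean level within a class) in the 12 libraries (columns). Colour gives log2(value + 1) minus the mean of the gene over the 12 libraries, red above and blue below it, with the scale ending at 4 on either side. Most calcium channel, Kv1 to Kv4 and Kv10 to Kv12 rows are red in High, pale in Low and blue in Sublow and Negative, while Kcne3, Kcnn4, Kcnk5 and Kcnk6 are blue in High.

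The sodium channel of the High gate was Scn3a, the pore subunit Nav1.3. It measured 3505, 2747 and 3184 in High, 106, 35.8 and 49.2 in Sublow, 51.7, 21.5 and 61.6 in Negative, and 669, 516 and 594 in Low. All High libraries lay above all Low libraries, and these above all Sublow and Negative libraries, which overlapped each other. The log2 difference was 2.41 ± 0.40 for High over Low (adjusted p = 0.000468) and 6.22 ± 0.40 for High over Negative (adjusted p = 8.53e-08).

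Other sodium channel pores were scarcer. Scn8a (Nav1.6) measured 300.5 ± 29.1 in High, 42.3 ± 6.2 in Sublow, 31.6 ± 3.74 in Negative and 76.0 ± 21.3 in Low, and rose by 2.0 ± 0.24 in High over Low (adjusted p = 5.01e-05). Scn9a (Nav1.7), Scn11a (Nav1.9) and Scn2a (Nav1.2) averaged 57.1, 54.0 and 34.1 in High and 29.2, 22.1 and 11.7 in Low. Of these, Scn2a was called in High over Low (adjusted p = 0.0397), a call lost in 8 of 20 other settings, among them the fit without any 1 library of High or Low. Scn1a (Nav1.1) was called in none of the 6 comparisons. Of the auxiliary subunits, which shape gating and surface delivery, Scn3b was higher in High, at 186.8 ± 9.67 against 60.1 ± 12.2 in Low (log2 difference 1.64 ± 0.30, adjusted p = 0.000991). Scn2b showed another order, at 133.5, 59.0 and 82.8 in High, 323, 159.9 and 279 in Sublow, 80.3, 63.1 and 53.6 in Negative, and 769, 681 and 620.5 in Low. It was above each other population in Low, and 7.52-fold higher in Low than in High by means (log2 difference of High over Low -2.97 ± 0.31, adjusted p = 2.05e-05).

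Among the 91 channel genes, a calcium channel pore had the highest mean. Cacna1a (Cav2.1) measured 11269, 11822 and 10752 in High, 736, 493 and 737 in Sublow, 352, 268 and 315 in Negative, and 3428, 2887 and 2178 in Low. The 4 ranges did not overlap. High was above Low by 2.02 ± 0.19 (adjusted p = 1.1e-05), and Negative was below Low by -3.16 ± 0.19 (adjusted p = 6.96e-07). Per kilobase of exon, Cacna1a was also the highest channel gene of High, at 988 ± 46.9 normalised counts per kb, followed by the background potassium channel Kcnk1 at 667 ± 40.3, Kcnh6 at 503 ± 34.0 and Kcnq1 at 359 ± 38.3.

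The low-voltage-activated pore Cacna1h (Cav3.2) measured 2438, 2496 and 2244 in High, 292, 309.7 and 386 in Sublow, 91.9, 20.0 and 68.5 in Negative, and 629.6, 621 and 375 in Low. Sublow and Low overlapped, and their difference was not called. The L-type pores Cacna1c (Cav1.2) and Cacna1d (Cav1.3), known for driving hormone release in endocrine cells, averaged 1484 ± 129 and 847 ± 36.9 in High, against 88.0 ± 22.2 and 76.1 ± 22.7 in Sublow, 27.96 ± 12.4 and 79.2 ± 30.8 in Negative, and 352 ± 42.7 and 169.5 ± 27.1 in Low. They were higher in High than in Low by 2.08 ± 0.31 (adjusted p = 0.00025) and 2.32 ± 0.28 (adjusted p = 4.62e-05). Cacna1b (N-type, Cav2.2) showed a smaller difference, at 325 ± 17.5 in High, 165 ± 14.0 in Sublow, 120 ± 5.83 in Negative and 154 ± 38.5 in Low (High over Low 1.10 ± 0.19, adjusted p = 0.000661). Cacna1g, which passed the filter only through High, measured 26.2, 47.9 and 76.0 in High and 15.3, 8.56 and 5.55 in Low (2.22, adjusted p = 0.012), a call lost without High replicate C or Low replicate C. Of the 9 measured pores, 6, Cacna1g among them, were above each other population in High, and Cacna1e (R-type, 134 ± 34.3 in High and 94.8 ± 27.0 in Low), Cacna1f and Cacna1s were called in no comparison.

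Of 10 measured genes classed by name as auxiliary calcium channel subunits, 6 followed. These are alpha2delta and beta subunits, which carry the pores to the surface and tune them. Cacna2d1 (alpha2delta-1) had the largest log2 difference between High and Negative of the named channel genes. It measured 3127, 3674 and 4068 in High, 131, 25.7 and 77.3 in Sublow, 19.0, 7.69 and 3.42 in Negative, and 631, 671 and 624 in Low. None of the 4 ranges overlapped. The log2 difference was 8.62 ± 0.55 for High over Negative (adjusted p = 8.28e-08) and 2.49 ± 0.55 for High over Low (adjusted p = 0.00312). Cacna2d2 fell to 6.17 ± 8.37 in Negative, where replicate A held most of it (15.8, 1.54 and 1.14), against 114 ± 36.3 in Low (log2 difference -4.62 ± 0.62, adjusted p = 6.25e-05). All 4 beta subunits, Cacnb1 to Cacnb4, rose in High over Low, where 23.6% of all genes rose. An opposite-strand gene overlaps 16.0% of the exon length of Cacnb4. Among the beta subunits Cacnb3 was the highest, at 1164 ± 68.0 in High, 210 ± 67.3 in Sublow, 92.6 ± 23.6 in Negative and 407 ± 61.0 in Low (1.52 ± 0.23, adjusted p = 0.00026). Cacng4, counted here only by its name as a gamma subunit, was among the highest genes of the set in Negative, at 619 ± 97.9. It measured 477 ± 115 in High, 478 ± 134 in Sublow and 449 ± 33.0 in Low and was called in no comparison.

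**Figure D3:**
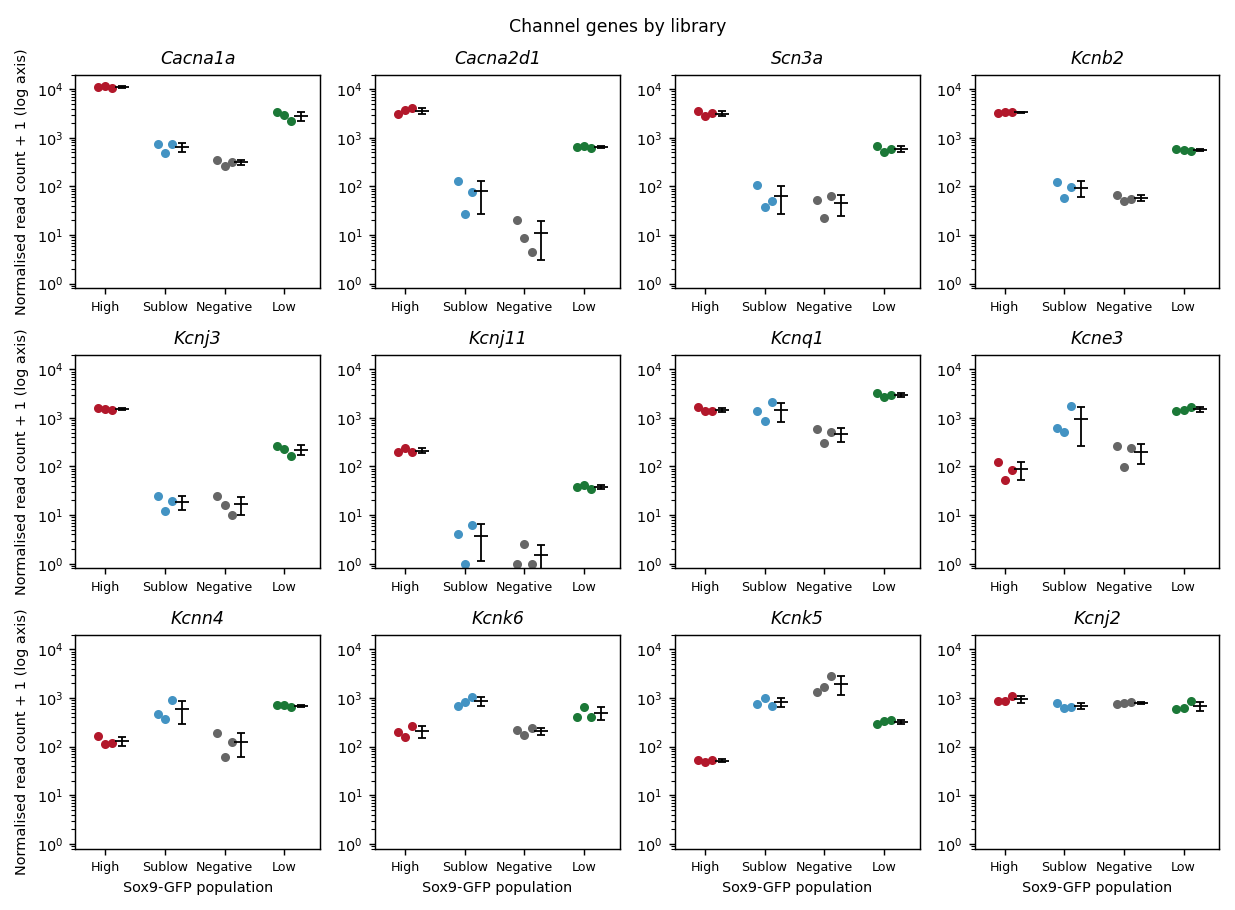
Normalised read count + 1 (y axis, log scale) of 12 channel genes by population (x axis). Points are libraries and bars are the mean ± SD of 3 libraries, with bars that would pass the bottom of the log axis ending there. Cacna1a, Cacna2d1, Scn3a, Kcnb2, Kcnj3 and Kcnj11 are highest in High, Kcnq1, Kcne3 and Kcnn4 have their highest mean in Low, Kcnk6 in Sublow and Kcnk5 in Negative, and Kcnj2 is nearly level.

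Of the voltage-gated potassium channels of the Kv1 to Kv4 families, 8 of 17 were measured and 7 of those, Kcnc4 through the High libraries alone, were above each other population in High. The delayed rectifier Kcnb2 (Kv2.2), which repolarises the membrane after a spike, measured 3259, 3411 and 3389 in High, 125, 55.9 and 97.5 in Sublow, 65.5, 49.2 and 54.8 in Negative, and 600.2, 551 and 526 in Low. High and Low each stood clear of all other libraries. The difference of High over Low was 2.58 ± 0.24 (adjusted p = 8.27e-06).

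Kcnd3 (Kv4.3), an A-type channel that delays firing, measured 1008, 968 and 1147 in High, 8.17, 4.47 and 12.3 in Sublow, 8.45, 3.08 and 5.71 in Negative, and 151, 122 and 144 in Low. Sublow and Negative lay near the level of a few reads. High was above Low by 2.90 ± 0.36 (adjusted p = 6.04e-05) and above Negative by 7.35 ± 0.36 (adjusted p = 1.02e-08). The fast-spiking channel Kcnc1 (Kv3.1) averaged 798 ± 312 in High and 228 ± 63.3 in Low (1.77 ± 0.29, adjusted p = 0.000427). The Kv1 genes of the shaker family, by contrast, were near or below the limit of measurement, and only Kcna4 entered the set (37.1 ± 12.3 in High, 19.5 ± 3.52 in Low, not called between them).

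Of the EAG family (Kv10 to Kv12), which includes the cardiac HERG channel, 5 of 6 measured genes were above each other population in High. Kcnh6 (Kv11.2) measured 1691, 1922 and 1747 in High, 42.9, 48.1 and 92.3 in Sublow, 17.95, 3.08 and 16.0 in Negative, and 346, 305 and 246 in Low. The 4 populations did not overlap. It was higher in High than in Low by 2.59 ± 0.48 (adjusted p = 0.00105) and lower in Negative than in Low by -4.76 ± 0.48 (adjusted p = 1.15e-05). Kcnh2, the HERG channel (Kv11.1), averaged 408 ± 38.6 in High and 133 ± 12.3 in Low (1.61 ± 0.30, adjusted p = 0.000948). Kcnh8 averaged 446 ± 56.7 in High, 34.4 ± 17.8 in Sublow, 2.55 ± 2.24 in Negative and 154 ± 11.0 in Low. Its fall in Negative held in each of 20 other settings (-5.76 ± 0.57, adjusted p = 9.74e-06), while its rise in High over Low (1.52 ± 0.57, adjusted p = 0.0469) was lost in 9. The Kv7 genes Kcnq3 and Kcnq5, which carry the M current of neurons, were not called between High and Low, at 147 ± 9.31 and 35.6 ± 0.799 in High and 97.6 ± 16.1 and 21.96 ± 5.69 in Low. Kcnh7 was also more even, at 362 ± 37.9 in High, 207 ± 32.3 in Sublow, 265 ± 46.6 in Negative and 269.6 ± 4.38 in Low.

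Modulatory Kv subunits form no channel alone and change the behaviour of Kv2 partners. Kcng3, Kcng2 and Kcns2 were above each other population in High, at 99.5 ± 16.5, 106 ± 31.5 and 54.3 ± 17.5, against 7.98 ± 2.01, 19.3 ± 3.79 and 8.54 ± 2.60 in Low. Kcns2 passed the filter only through High. Kcns3 and Kcnf1 ran otherwise. Kcns3 averaged 54.0 ± 13.2 in High, 97.0 ± 73.6 in Sublow, 179.6 ± 62.1 in Negative and 24.1 ± 6.80 in Low, a rise of 2.82 ± 0.47 in Negative over Low (adjusted p = 0.000293). Its rise in Sublow over Low (1.72 ± 0.47, adjusted p = 0.02) rested on Sublow replicate B, at 180.0 against 71.5 and 39.5 in the other two, and was lost without it and in 3 other settings. Kcnf1 averaged 5.13 ± 5.14 in High, 70.1 ± 20.9 in Sublow, 10.6 ± 3.0 in Negative and 52.1 ± 24.2 in Low. It fell in High (-3.33 ± 0.54, adjusted p = 0.000418) and in Negative (-2.12 ± 0.54, adjusted p = 0.00516) relative to Low.

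Inward rectifiers hold the membrane near the potassium equilibrium. Of the 4 subunits of the G protein-gated channel, through which inhibitory receptors quiet endocrine cells, Kcnj3, Kcnj5 and Kcnj6 were above each other population in High. Kcnj9 (GIRK3) was near the limit of measurement, at 10.9 ± 1.67 in High and 8.31 ± 3.42 in Low, and was not called between them. Kcnj3 (GIRK1) measured 1574, 1553 and 1466 in High, 23.5, 11.2 and 18.5 in Sublow, 23.2, 15.4 and 9.13 in Negative, and 262.5, 232 and 164 in Low. Sublow and Negative overlapped and lay far below both other gates. The rise in High over Low was 2.82 ± 0.33 (adjusted p = 4.47e-05), and Kcnj5 (GIRK4, 387 ± 45.7 in High and 55.7 ± 18.02 in Low) and Kcnj6 (GIRK2, 341.5 ± 55.6 in High and 50.8 ± 16.0 in Low) rose by 2.82 and 2.76. Exons of Kcnj3 overlap those of an opposite-strand gene over 31.1% of their length in the reference annotation, and whether reads were counted by strand is not given in the sources used here.

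Kcnj11 (Kir6.2) is the pore of the ATP-sensitive potassium channel that couples glucose to hormone release. It measured 199, 242 and 194 in High, 3.06, 0 and 5.27 in Sublow, 0, 1.54 and 0 in Negative, and 37.0, 40.3 and 33.3 in Low. Negative held 1 read in all 3 libraries together, against 714 in High and 123 in Low, which gives a ratio of High to Negative of 523 (95% counting interval 93.6 to 20683). High over Low was 2.49 ± 0.61 (adjusted p = 0.00582). Its regulatory subunit Abcc8 (SUR1), the neighbouring gene, averaged 3744 ± 453 in High, 49.5 ± 20.1 in Sublow, 9.52 ± 3.42 in Negative and 530.0 ± 124 in Low, and rose in High over Low by 2.84 ± 0.34 (adjusted p = 4.8e-05).

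Calcium- and sodium-activated potassium channels couple potassium outflow to the ions that entered. Kcnt1, the sodium-activated channel, averaged 388 ± 42.1 in High, 7.13 ± 4.55 in Sublow, 4.25 ± 1.65 in Negative and 48.7 ± 30.6 in Low (High over Low 3.13 ± 0.51, adjusted p = 0.000436). Kcnma1, the large-conductance BK channel, was spread more evenly, at 377 ± 9.57 in High, 206 ± 27.6 in Sublow, 70.0 ± 12.7 in Negative and 196 ± 46.2 in Low, a rise of 0.97 ± 0.20 in High over Low (adjusted p = 0.00224). Its neuronal beta subunit Kcnmb4 averaged 157 ± 16.5 in High and 79.2 ± 7.88 in Low (0.98 ± 0.27, adjusted p = 0.0117), while Kcnmb1, the smooth muscle beta subunit, was called in no comparison (70.5 ± 7.71 in High and 52.1 ± 9.65 in Low). Exons of Kcnmb4, like those of Kcnj3, overlap opposite-strand genes, over 31.5% of their length. Kcnab3, a cytoplasmic Kv beta subunit, passed the filter only through High and measured 275, 139 and 161 in High and 27.2, 16.3 and 7.92 in Low (3.50 ± 0.46, adjusted p = 8.85e-05).

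The potassium channels of the secreting crypt were highest in Low. Kcnq1 (Kv7.1) and its partner Kcne3 form a constantly open basolateral channel, and Kcnn4 is the calcium-activated basolateral channel. Kcnq1 measured 1650.1, 1371 and 1386 in High, 1367, 855 and 2088 in Sublow, 593.5, 311 and 504 in Negative, and 3309, 2746 and 2973 in Low. High and Sublow overlapped, and Low lay above all other libraries. It was lower than in Low by -1.04 ± 0.29 in High (adjusted p = 0.0123), by -1.16 ± 0.29 in Sublow (adjusted p = 0.0132, and 0.053 without Low replicate A) and by -2.72 ± 0.29 in Negative (adjusted p = 1.45e-05).

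Kcne3 differed far more than Kcnq1 in High. It measured 125, 52.5 and 85.3 in High, 616, 513 and 1773 in Sublow, 259, 96.9 and 242 in Negative, and 1361, 1484 and 1672 in Low. Sublow replicate C lay above all Low libraries, and the difference of Sublow from Low was not called. High was below Low by -4.17 ± 0.48 (adjusted p = 3.63e-05) and Negative by -3.03 ± 0.48 (adjusted p = 0.000184). Per kilobase of exon, Kcne3 stood at 49.3 ± 20.5 and Kcnq1 at 359 ± 38.3 counts per kb in High, against 846 ± 88.2 and 735 ± 69.2 in Low.

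Kcnn4 measured 161.5, 113 and 116 in High, 465, 367 and 911 in Sublow, 190.1, 61.5 and 123 in Negative, and 705, 708 and 654 in Low. The ranges of High and Negative overlapped, as did those of Sublow and Low, with Sublow replicate C the highest library of all. It fell in High (-2.41 ± 0.38, adjusted p = 0.000347) and in Negative (-2.60 ± 0.38, adjusted p = 0.000117) relative to Low. The background channel Kcnk1 (TWIK-1) averaged 1492 ± 90.04 in High, 1268 ± 581 in Sublow, 311 ± 80.9 in Negative and 1488 ± 267 in Low. It was not called between High, Sublow and Low, and differed between Negative and Low by -2.27 ± 0.28 (adjusted p = 3.13e-05).

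**Figure D4:**
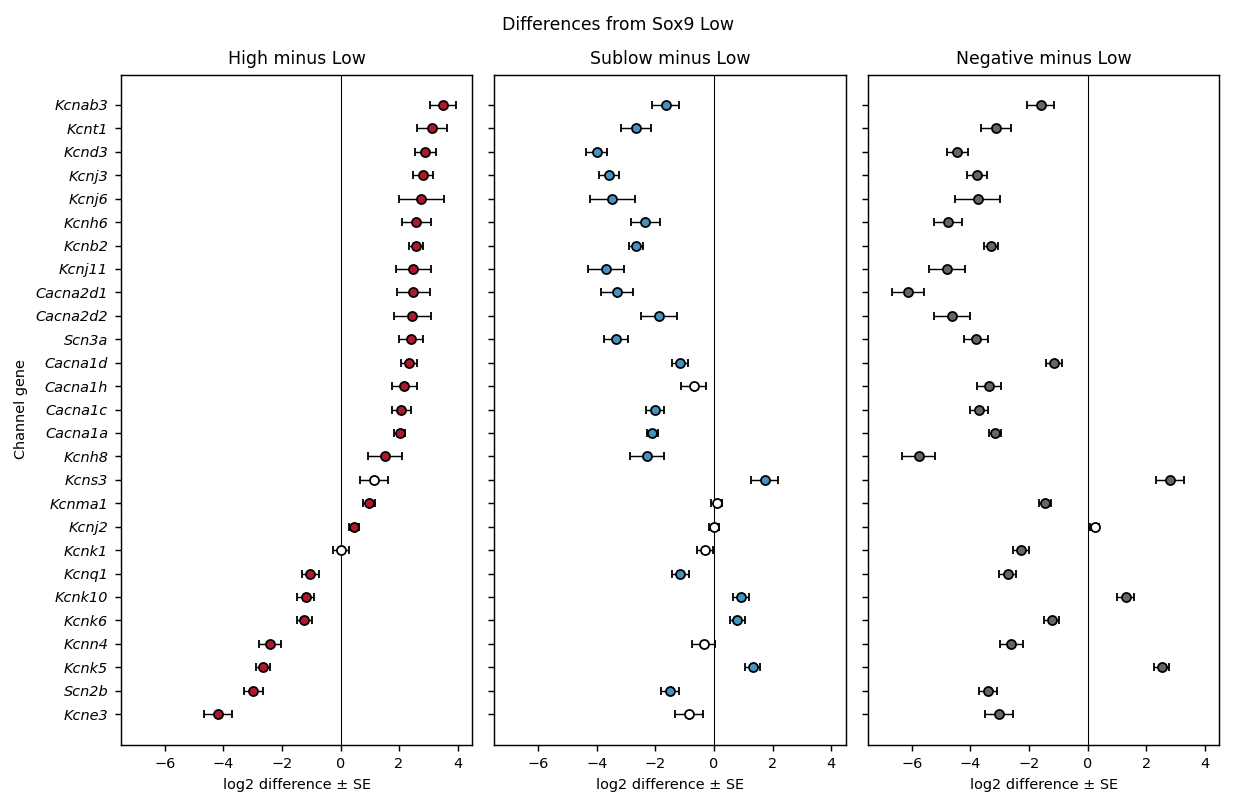
Log2 difference ± SE from Low (x axis) of channel genes picked by the naming rule (y axis) in High, Sublow and Negative (panels from left to right). Filled points were called (adjusted p below 0.05) and open points were not. In High most genes lie right of 0, with Kcnt1 at 3.13, and in Sublow and Negative most lie left of it. The filled points right of 0 are Kcns3, Kcnk5 and Kcnk10 in both and Kcnk6 in Sublow.

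K2P channels, background potassium channels with tandem pore domains that set the resting potential, differed among themselves in direction. Of 9 measured, 2 rose and 4 fell in High over Low, 3 rose and 1 fell in Sublow over Low, and 3 rose and 3 fell in Negative over Low. Of all genes tested, 23.6% rose and 19.3% fell in High over Low, 13.3% and 10.7% in Sublow over Low, and 26.8% and 30.3% in Negative over Low. The rises in High, the falls in Sublow and both counts in Negative were therefore near the background. Kcnk5 (TASK-2), which is opened by alkaline pH, measured 51.4, 47.0 and 53.2 in High, 745, 1021 and 690 in Sublow, 1321, 1699 and 2903 in Negative, and 289.8, 334 and 346 in Low. The 4 ranges did not overlap, in the order Negative, Sublow, Low and High. Negative was above Low by 2.53 ± 0.25 (adjusted p = 9.39e-06) and Sublow by 1.32 ± 0.25 (adjusted p = 0.00289), and both calls held in each of 20 other settings.

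Kcnk6 (TWIK-2) was the channel gene above each other population in Sublow. It measured 203, 156 and 270.3 in High, 689, 816 and 1047 in Sublow, 221, 172 and 236 in Negative, and 414, 667 and 413 in Low. All Sublow libraries were the highest, but the difference from Low was small (0.79 ± 0.25, adjusted p = 0.0392) and was lost in 8 of 20 other settings, among them scaling to the same total and the fit without Sublow replicate B or C. The 8 goblet cell markers also had their highest sum in Sublow, at 343558 to 599602, against 8472 to 12346 in High, 51308 to 109948 in Negative and 143592 to 487789 in Low. Low replicate B, the highest Low library for Kcnk6, was also the highest for the goblet gene Muc2, at 144626 against 52007 and 50863 in the other two. Within Sublow the highest libraries differed. Kcnk6 was highest in replicate C, and Muc2 in replicate B (164377, against 107602 in A and 151048 in C). The part of goblet cells in the Kcnk6 values was not tested. Kcnk10 (TREK-2), a stretch-sensitive channel, averaged 51.9 ± 16.3 in High, 227 ± 60.0 in Sublow, 289 ± 45.4 in Negative and 119 ± 30.7 in Low, a rise of 1.30 ± 0.28 in Negative over Low (adjusted p = 0.00173). Its rise in Sublow over Low (0.93 ± 0.28, adjusted p = 0.0307) was lost in 6 settings. Kcnk16 (TALK-1), known from pancreatic islets, and Kcnk3 (TASK-1) were highest in High, at 146 ± 29.2 and 78.7 ± 18.5, against 31.5 ± 15.4 and 17.8 ± 3.89 in Low.

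In all, 19 of the 91 channel genes were called in none of the 6 comparisons, and 4 of these averaged 50 or more across all libraries (Cacng4, Cacna1e, Kcnmb1 and Kcnj15). The share of all genes called in none was not counted, so whether the 19 are many or few is not known. Kcnj15, an inward rectifier, was the most even of these, at 58.4 ± 12.2 in High, 57.9 ± 17.4 in Sublow, 57.1 ± 10.01 in Negative and 58.5 ± 15.4 in Low (F test adjusted p = 0.999). Kcnj2 (Kir2.1), a strong inward rectifier, was the second highest channel gene of Negative and measured 936 ± 153 in High, 689.8 ± 95.1 in Sublow, 804 ± 38.9 in Negative and 689.8 ± 139 in Low. Its rise in High over Low (0.45 ± 0.17, adjusted p = 0.0482) was lost in 11 of 20 other settings.

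Several channel genes lie side by side on their chromosome, and neighbours did not always share a pattern. By the gene order of RefSeq, Kcnk5 and Kcnk16 have no gene between them on chromosome 14, and Kcnk5 was lowest in High where Kcnk16 was highest. Kcnk16 measured 137, 179 and 122 in High, 0, 2.24 and 3.51 in Sublow, 2.11, 0 and 0 in Negative, and 49.0, 25.7 and 19.8 in Low. Its ratio of High to Negative was 180 by summed reads, 491 against 2 (95% counting interval 49.5 to 1489), while Kcnk5 was 39.1-fold higher in Negative than in High by means. Likewise Kcnj16 (Kir5.1; 139 ± 84.1 in High and 19.8 ± 7.42 in Low, adjusted p = 0.00289) adjoins the nearly level Kcnj2 on chromosome 11. Kcnj6 adjoins the level Kcnj15 on chromosome 16, and Scn3a adjoins the scarce Scn2a on chromosome 2. These genes are named here for their position, chosen after their values were seen.

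**Figure D5:**
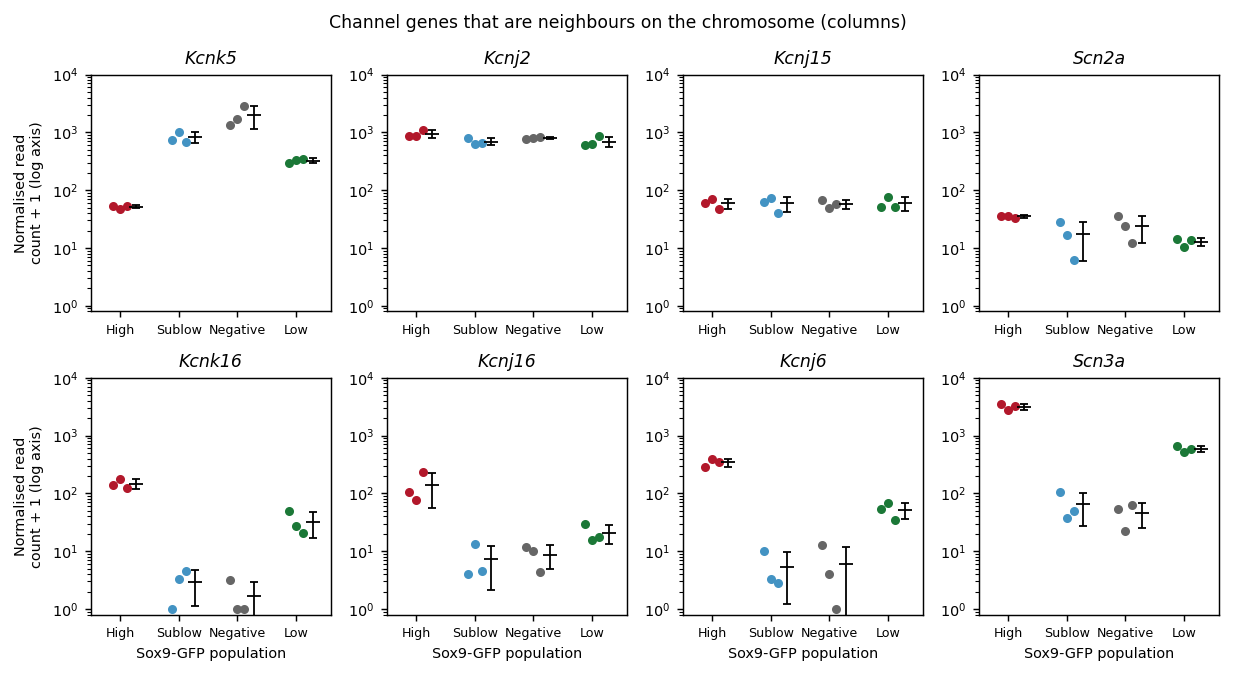
Normalised read count + 1 (y axis, log scale) by population (x axis) for 4 pairs of channel genes with no gene between them, each pair in a column. Points are libraries and bars the mean ± SD of 3 libraries, with bars that would pass the bottom of the log axis ending there. Kcnk5 is highest in Negative and Kcnk16 in High, while Kcnj2 and Kcnj15 are nearly level beside Kcnj16 and Kcnj6, which are highest in High.

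Promoter sequences of the adjoining pair Kcnk5 and Kcnk16 and of Cacna2d1, which had the largest log2 difference of High over Negative among the named genes, are shown to set the opposite patterns beside the letters upstream of each gene. They are RefSeq sequences of build GRCm38.p6, from 250 bases before to 50 bases after the annotated start, written 5′ to 3′. Capitals mark the motifs found there, the GC box GGGCGGGG or its reverse complement in Kcnk5 and Cacna2d1, overlapping copies included, and the E-box CAGATG in Kcnk16.
Kcnk5 promoter, chr14:20181733-20182032, minus strand: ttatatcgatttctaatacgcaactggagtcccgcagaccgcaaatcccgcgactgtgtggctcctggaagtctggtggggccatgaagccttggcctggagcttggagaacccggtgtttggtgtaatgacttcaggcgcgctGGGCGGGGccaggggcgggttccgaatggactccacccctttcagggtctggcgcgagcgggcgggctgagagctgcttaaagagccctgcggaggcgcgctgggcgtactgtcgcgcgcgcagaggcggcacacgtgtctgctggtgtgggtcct
Kcnk16 promoter, chr14:20269220-20269519, minus strand: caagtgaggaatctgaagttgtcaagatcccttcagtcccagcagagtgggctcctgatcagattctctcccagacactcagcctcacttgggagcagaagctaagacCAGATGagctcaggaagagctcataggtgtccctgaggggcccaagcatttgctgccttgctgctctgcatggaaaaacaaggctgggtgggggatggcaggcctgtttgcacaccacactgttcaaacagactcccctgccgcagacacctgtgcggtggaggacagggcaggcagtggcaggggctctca
Cacna2d1 promoter, chr5:15934441-15934740, plus strand: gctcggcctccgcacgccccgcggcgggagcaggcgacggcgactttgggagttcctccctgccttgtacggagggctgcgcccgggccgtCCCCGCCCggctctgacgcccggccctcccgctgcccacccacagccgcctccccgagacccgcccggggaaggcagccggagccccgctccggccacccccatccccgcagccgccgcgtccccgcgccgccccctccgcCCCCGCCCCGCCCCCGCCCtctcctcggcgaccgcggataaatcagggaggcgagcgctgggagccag
The letters of the pair differ in composition as well as in motif. The Kcnk5 window held 26 CpG dinucleotides and the Kcnk16 window 2, while Cacna2d1 held 42.

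Promoters were at hand for 63 of the 91 channel genes (94 windows). Windows of the genes above each other population in High (28 of 45 genes, 43 windows) had a median of 21 CpG dinucleotides and 64.0% G and C, against 7 and 55.3% in the other channel genes (35 genes, 51 windows) and 7 and 52.7% over all 32851 windows of the table. On both strands, the E-box CAGATG was in 14.0% of the windows of the High genes, 25.5% of those of the other channel genes and 17.2% of all windows. The GC box was in 25.6%, 23.5% and 17.6% of them. The cAMP response element TGACGTCA and the HNF4 motif CAAAGTCCA were in no window of a channel gene, and in 1.79% and 0.475% of all windows. A match is a description of the letters, several windows can belong to the same gene, and no test was made.

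Other cation channels and calcium stores, formed a list of 39 genes, of which 37 passed the filter. Of the 37, 17 rose and 3 fell in High over Low, 3 rose and 14 fell in Sublow over Low, and 6 rose and 16 fell in Negative over Low. Against the shares of all genes (23.6% and 19.3%, 13.3% and 10.7%, 26.8% and 30.3%), more rose and fewer fell in High, and fewer rose and more fell in Sublow and Negative. Trpm5, the taste-signalling channel of tuft cells, and Itpr2, a calcium release channel, were above Cacna1a in High, at 26730 ± 369 and 12428 ± 261, against 2876 ± 1035 and 3015 ± 614 in Low. Trpa1, the irritant receptor of enterochromaffin cells, measured 5179, 3058 and 4317 in High, 13.3, 0 and 10.5 in Sublow, 3.17, 0 and 9.13 in Negative, and 289.8, 138 and 163 in Low (High over Low 4.44 ± 0.95, adjusted p = 0.0024). Hcn4, a pacemaker channel that opens on hyperpolarisation, averaged 934 ± 138 in High and 129 ± 14.9 in Low (2.84 ± 0.74, adjusted p = 0.00788). Unc80, a subunit of the sodium leak channel, averaged 2570.1 ± 285 in High and 337 ± 58.1 in Low. The calcium-activated Trpm4 went the other way, at 302 ± 89.3 in High, 2372 ± 892 in Sublow, 3811 ± 819 in Negative and 1032 ± 291 in Low.

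Transporters that work beside epithelial potassium channels formed a list of 19 genes, of which 16 passed. In High over Low 1 rose and 6 fell, in Sublow over Low 9 rose and none fell, and in Negative over Low 9 rose and 5 fell. The shares of all genes were 23.6% and 19.3% in High, 13.3% and 10.7% in Sublow and 26.8% and 30.3% in Negative, so the falls in Negative were near the background. The chloride channel Cftr measured 506, 301 and 469.7 in High, 4764, 4352 and 6829 in Sublow, 4184, 3932 and 5498 in Negative, and 5915, 6432 and 8124 in Low. High stood alone at the bottom (High over Low -4.02 ± 0.23, adjusted p = 6.44e-07). Slc12a2, which loads chloride for secretion, averaged 3836 ± 1328 in High, 16749 ± 8215 in Sublow, 2432 ± 1691 in Negative and 42924 ± 4212 in Low, and so had its highest mean in Low, as did Kcnq1, Kcne3 and Kcnn4. The bicarbonate transporter Slc4a4 rose in Negative over Low by 1.71 ± 0.20 (adjusted p = 2.34e-05), and Kcnk5 rose there as well.

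Summed enteroendocrine and tuft markers were highest in High and next in Low, the order of the summed channel genes. Markers of other epithelial cells had other orders. The 18 enteroendocrine markers summed to 533188 to 733394 in High, 3890 to 11103 in Sublow, 541 to 2642 in Negative and 63762 to 107486 in Low. In High over Low 16 of the 18 rose and none fell by the test. Of all genes tested, 23.6% rose and 19.3% fell there, the background for the tuft markers below as well. A hormone gene among the 18 ran otherwise by its mean. It averaged 737 in High, 1202 in Sublow, 263 in Negative and 4873 in Low. The 12 tuft markers summed to 122233 to 125756 in High, 224 to 641 in Sublow, 109 to 251 in Negative and 10747 to 18370 in Low, and all 12 rose in High over Low. Each of the 45 channel genes that were above every other gate in High was set against its own mean in High, and the median share was 5.83% in Sublow, 3.11% in Negative and 19.6% in Low. The 45 were picked from these data for being higher in High, so low shares in the other gates follow from that choice. They include the 5 genes that entered only through the High libraries. The shares are a description and are not weighed against those of the markers. The enteroendocrine sum came to 1.30% (Sublow), 0.237% (Negative) and 13.9% (Low) of its own level in High, and the tuft sum to 0.385% (Sublow), 0.138% (Negative) and 11.1% (Low). The part of enteroendocrine and tuft cell numbers in the channel differences was not tested. The 12 enterocyte markers summed to 46251 to 60859 in High, 88586 to 548179 in Sublow, 677216 to 1038980 in Negative and 23175 to 58822 in Low. The 7 Paneth cell markers also had their highest sum in Negative. It was 487 to 4160 in High, 12382 to 18096 in Sublow, 46055 to 119769 in Negative and 18616 to 43478 in Low. Among the 7, Mmp7 had its highest mean in Low (611, against 510 in Negative). None of the 7 was called between Negative and Low. The 8 stem cell markers, Slc12a2 among them, were highest in Low, at 6989 to 15190 in High, 16715 to 60284 in Sublow, 2473 to 9631 in Negative and 100951 to 129164 in Low. Goblet markers, given beside Kcnk6, were highest in Sublow by their mean.

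Markers of cells from outside the epithelium were read beside the channel genes. The 14 neuron and glia markers summed to 2175 to 2645 in High, 342 to 538 in Sublow, 532 to 584 in Negative and 542 to 643 in Low, led in High by Snap25 (930.0), which endocrine cells also use. Of the 10 that passed the filter, 5 rose in High over Low and none fell (23.6% and 19.3% of all genes). The 5 included Chat (848 in High and 82.9 in Low), which tuft cells also express, Uchl1 (87.6 in High and 14.1 in Low) and Elavl4 (52.9 in High and 11.5 in Low). The enteric neuron gene Prph and the glia genes Sox10 and Gfap were below the filter, at means of 9.80, 3.02 and 6.89 in High. The 10 genes of smooth muscle and interstitial cells summed to 2289 to 3588 in High, 719 to 1269 in Sublow, 317 to 380.0 in Negative and 1411 to 1512 in Low, of which Kit made up most in High (2585). The 12 leukocyte genes summed to 2123 to 3536 in High, of which Ptprc made up most (2469), and to 221 to 342 in the other populations. Of the 9 that passed the filter, 2 rose and 2 fell in High over Low (23.6% and 19.3% of all genes). Sums for 7 fibroblast genes (150.3 to 332), 6 endothelial genes (899 to 1630.2) and 4 globin genes (0 to 63.9) covered all 12 libraries. The part of these cells in the channel values was not tested.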

How the data were processed

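RNA of 12000 sorted cells per library was depleted of ribosomal RNA, and libraries (Clontech SMARTer v2 Pico kit for total RNA) were read from a single end, per the labels' protocols. The authors deposited 1 table of normalised read counts, a signal per gene symbol and library. Every value (100%, tolerance 0.01) was a whole multiple of its library's smallest step, so values are reads divided by a size factor, and the reads were recovered. Not given in the sources used here were the aligner, the counting program, its strand setting, build and annotation, and the origin of the size factors. Genes that reached 10 in 3 or more of the 12 libraries (16577 of 30265) were tested on log2(value + 1) with limma 3.58.1 in R 4.3.3, trend option, 1 fit of all 12 libraries by population (prior degrees of freedom 4.10), adjusted over all genes (Benjamini-Hochberg), threshold 0.05. A gene was above each other population when it passed against all 3. Ratios of summed reads carry 95% exact counting intervals, which cover counting error only. Lengths per kilobase came from GENCODE M21 exons, gene order and promoters from RefSeq (GRCm38.p6).

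The test was tried on simulated counts. Alternatives were pseudocounts of 0.5 and 5, no filter, scaling to the same total, the replicate letter as a block, edgeR 4.0.16 and DESeq2 1.42.0 on recovered counts, a fit of only the 6 libraries compared, and leaving out each library. On the recovered counts, edgeR called 7357 genes for High against Low, 4169 for Sublow against Low, 9460 for Negative against Low, 9066 for High against Negative, 3995 for Sublow against Negative and 8770 for High against Sublow. Full values were given to the 10 channel genes with the highest mean, to the 4 largest rises and falls per comparison (called, mean of at least 50, no overlap) and to channels known from gut or endocrine cells. Channel genes, marker lists and lists of transporters and other channels were chosen with earlier results of these data known. Some channel, transporter and marker genes that these rules cover count in the totals but are not reported here by name.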

Additional observations from a re-analysis of the deposited data

How the results depend on the processing

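Of the 282 calls of channel genes over the 6 comparisons, 57 were lost in at least 1 of 20 other settings and none changed direction. Of the full values of the 28 named genes, 3253 of 3360 recomputed ones kept direction and side of the threshold, 82 were weaker, 25 stronger and none reversed. The count of channel genes higher in Sublow than in Low (4) was 2 when scaled to the same total and 1 in the fit of only the 6 libraries compared. The count higher in Negative than in Low (6) was 3 without a filter and 3 when scaled to the same total. For Sublow against Negative, the 20 rises and 3 falls became 1 and 0 in the fit of only the 6 libraries compared. The cause of these changes was not tested. Scaling to the same total moved the median of all genes from -0.05 to -0.60 in Negative against Low, from -0.06 to -0.33 in Sublow against Low, from 0.03 to 0.50 in High against Negative, from -0.04 to 0.23 in Sublow against Negative and from 0.03 to 0.22 in High against Sublow.

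Leaving out 1 library at a time gave 41 to 50 genes higher and 8 to 9 lower in High than in Low, 1 to 4 higher and 23 to 33 lower in Sublow than in Low, 3 to 7 higher and 41 to 44 lower in Negative than in Low, 51 to 54 higher and 4 to 6 lower in High than in Negative, 19 to 22 higher and 1 to 9 lower in Sublow than in Negative, 51 to 55 higher and 8 to 8 lower in High than in Sublow, and 62 to 65 by the F test. The counts of 1 in Sublow over Low came without Sublow B, Low A or Low C, the 3 in Negative over Low without Negative A, and in Sublow below Negative the 9 came without Sublow B and the 1 without Negative B.

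Libraries of the same replicate letter deviated from their population means together (correlation 0.0521 to 0.341, mean 0.156 over 18 pairs, against -0.0781 for different letters), and 12 of 12 libraries correlated best with their own letter, a hint from the data and not from the design. With the replicate block, 47 channel genes rose and 9 fell in High over Low, 4 and 31 in Sublow over Low, 7 and 43 in Negative over Low, 54 and 6 in High over Negative, 22 and 4 in Sublow over Negative, and 55 and 8 in High over Sublow. Depth limits genes near 3 reads (2.38 to 4.61 normalised units), where Sublow and Negative held many of the channel genes of High.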
